A study of Mus musculus with 2 samples.

Results

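Single-exon intergenic assembled transcripts are stretches of spleen RNA that a transcript assembler built from reads, that hold no intron, and that lie outside the genes it was given. They were taken from the deposited table of assembled long non-coding RNA (lncRNA) candidates as the entries of class code u with 1 exon. Entries touching 4 intervals were left out, namely chromosome 6 from 67.5 to 70.75 Mb, chromosome 12 from 113.2 to 116.01 Mb, chromosome 14 from 52.4 to 54.25 Mb and chromosome 17 from 33.6 to 38.6 Mb. These intervals hold antigen receptor genes and the major histocompatibility complex. The rule kept 2556 members of 2584 before the intervals were left out, among 16840 assembled and 32012 deposited transcripts in all. It used structure and position and no expression value.

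The series set spleen RNA of mice with collagen-induced arthritis (CIA) beside spleen RNA of healthy mice. CIA is an induced joint disease of mice, set off by injecting the collagen of cartilage. Each group had 1 library, so nothing was replicated and the values compare those libraries, not the conditions. The titles put both groups at day 40, whereas the treatment label places sacrifice of the CIA mice 42 days after first immunization and gives the healthy mice no treatment. The labels give no strain, age or number of mice behind a library. Total RNA was extracted with TRIzol and depleted of ribosomal RNA with Ribo-Zero, so RNA without a poly(A) tail could enter both libraries. Spleen was taken from the label, since the markers of its cell types are protein-coding and their mRNA levels were not analysed here.

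A transcript assembler joins overlapping reads into candidate transcripts, and a class code then says where a candidate lies against known genes, with u marking one that overlaps none. Such candidates can be unannotated lncRNA, RNA that runs on past the end of a gene, RNA started at promoters and enhancers, or fragments of repeats and pseudogenes. A candidate with no intron carries no splice site to show its strand. In spleen, which filters blood and hosts B cell, T cell and plasma cell responses, RNA of this kind is often found beside the genes active in its resident cells.

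The label was checked against the GENCODE M21 annotation on GRCm38. Of the 2556 members, 2 overlapped a GENCODE gene, 1 of them protein-coding and 1 a lincRNA, so the intergenic label held for that annotation. By contrast 493 members overlapped a RefSeq gene, among them 257 with a gene of RefSeq type lncRNA and 195 with one of type protein-coding. Strand was not assigned for 92.5% of the members, so their reads could not be told apart from those of an overlapping or antisense gene. Each member formed its own assembly locus, and 3 shared that locus with another transcript of the tables. In all, 53 members overlapped a further transcript of the tables, 49 of them a multi-exon one.

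Sequence near a gene start was shared by 44 members, which held bases of 48 RefSeq windows of 250 bases just upstream of a gene's first base. The windows of 7 members are printed, chosen after their values were seen from genes whose product is known: 5 over gene starts where the libraries stood apart, the most abundant of the 44, and the B cell gene Pax5. Farther apart than some of these, and not printed, were members over the starts of the predicted genes Gm42333, Gm33799 and Gm41020, with log2 ratios of 2.31, 2.12 and 1.82, and of Gm51961, where MSTRG.9137.1 had 2.27 FPKM in CIA and was listed at 0 in healthy. They run 5′ to 3′ on the gene's strand, with the bases inside the member in capitals, and come from RefSeq on GRCm38.p6. The Ube2z window is chr11:96065389-96065614, minus strand, and the Ms4a4d window is chr19:11536544-11536793, plus strand. The Begain window is chr12:109068243-109068492, minus strand, and the Pax5 window is chr4:44710695-44710944, minus strand. The Med13 window is chr11:86357603-86357846, minus strand, the Hectd4 window is chr5:121219969-121220218, plus strand, and the Zfp110 window is chr7:12834511-12834760, plus strand. Bases inside a GENCODE gene were trimmed from 2 of them, 24 from the Ube2z window and 6 from the Med13 window.
Ube2z window over MSTRG.6767.1: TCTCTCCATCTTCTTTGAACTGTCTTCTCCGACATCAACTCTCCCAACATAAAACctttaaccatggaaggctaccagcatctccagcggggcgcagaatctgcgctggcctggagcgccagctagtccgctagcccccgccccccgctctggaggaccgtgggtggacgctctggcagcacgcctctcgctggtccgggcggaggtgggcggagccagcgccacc
Ms4a4d window over MSTRG.19239.1: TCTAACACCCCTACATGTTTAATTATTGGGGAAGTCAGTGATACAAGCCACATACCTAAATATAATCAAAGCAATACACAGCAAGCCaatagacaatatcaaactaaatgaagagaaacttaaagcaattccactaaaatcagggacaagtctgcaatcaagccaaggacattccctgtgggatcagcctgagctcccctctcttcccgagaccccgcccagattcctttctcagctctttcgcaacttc
Begain window over MSTRG.9071.1: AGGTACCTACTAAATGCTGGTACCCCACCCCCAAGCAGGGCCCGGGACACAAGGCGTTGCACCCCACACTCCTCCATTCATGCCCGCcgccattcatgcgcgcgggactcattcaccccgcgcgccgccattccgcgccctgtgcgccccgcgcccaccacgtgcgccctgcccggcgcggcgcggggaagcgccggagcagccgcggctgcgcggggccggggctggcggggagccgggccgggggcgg
Pax5 window over MSTRG.25969.1: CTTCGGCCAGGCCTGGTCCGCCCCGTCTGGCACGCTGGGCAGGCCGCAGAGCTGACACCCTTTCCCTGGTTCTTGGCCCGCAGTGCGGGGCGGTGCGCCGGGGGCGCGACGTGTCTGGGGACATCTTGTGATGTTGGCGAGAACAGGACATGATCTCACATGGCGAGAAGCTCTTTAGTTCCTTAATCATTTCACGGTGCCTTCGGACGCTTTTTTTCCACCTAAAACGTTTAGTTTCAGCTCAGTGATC
Med13 window over MSTRG.6565.1: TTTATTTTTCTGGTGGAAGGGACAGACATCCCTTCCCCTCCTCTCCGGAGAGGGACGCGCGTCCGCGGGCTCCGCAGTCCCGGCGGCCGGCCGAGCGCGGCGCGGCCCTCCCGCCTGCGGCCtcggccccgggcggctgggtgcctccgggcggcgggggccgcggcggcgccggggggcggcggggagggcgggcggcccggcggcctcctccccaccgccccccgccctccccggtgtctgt
Hectd4 window over MSTRG.29732.1: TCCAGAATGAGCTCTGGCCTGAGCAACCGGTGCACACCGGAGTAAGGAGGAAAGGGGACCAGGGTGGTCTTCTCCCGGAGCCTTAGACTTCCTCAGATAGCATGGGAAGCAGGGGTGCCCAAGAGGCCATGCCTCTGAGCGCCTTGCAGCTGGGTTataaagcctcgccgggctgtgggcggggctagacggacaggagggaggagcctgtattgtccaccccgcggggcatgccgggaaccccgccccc
Zfp110 window over MSTRG.33077.1: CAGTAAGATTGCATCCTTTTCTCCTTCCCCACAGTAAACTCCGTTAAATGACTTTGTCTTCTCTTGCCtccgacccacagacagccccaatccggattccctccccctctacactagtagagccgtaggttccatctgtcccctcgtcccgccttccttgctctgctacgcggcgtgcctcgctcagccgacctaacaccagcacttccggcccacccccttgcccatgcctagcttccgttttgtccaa

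The member over the Ube2z window, MSTRG.6767.1, had 1.93 FPKM in CIA and 0.0489 in healthy (FPKM, fragments per kilobase of transcript, scaled to library size). Ube2z encodes a ubiquitin-conjugating enzyme, and 55 of the printed bases lay in the member. MSTRG.19239.1, over the Ms4a4d window, stood at 2.39 and 0.495 FPKM in the same order, and MSTRG.9071.1, over the Begain window, at 5.19 and 1.93 FPKM. Ms4a4d belongs to a family of membrane-spanning proteins of blood cells, and Begain is known from synapses. MSTRG.25969.1 covered the whole Pax5 window, with 1.77 FPKM in CIA and 0.704 in healthy. Pax5 is the transcription factor that maintains B cell identity. MSTRG.6565.1, over the window of the Mediator subunit gene Med13, was the most abundant of the 44, at 11.8 and 6.46 FPKM. The reverse order held for MSTRG.29732.1 over the Hectd4 window, at 0.654 FPKM in CIA and 1.80 in healthy, and for MSTRG.33077.1 over the Zfp110 window, at 0.202 and 1.81 FPKM. Hectd4 encodes a ubiquitin ligase and Zfp110 a zinc finger protein.

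The 48 windows over members had a median GC content of 59.6% and a median of 13 CG dinucleotides, beside 52.4% and 6 over all 32851 RefSeq windows of this length. The letters GGGCGG, on either strand, were found in 45.8% of the windows over members and in 32.7% of all windows. CCGGAAGT was found in 4.17% against 2.88%, and TATAAA in 4.17% against 12.4%. The printed Med13 window had a GC content of 81.1%, and the Ms4a4d window 43.2%.

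The 2 libraries were compared by log2((CIA FPKM + 0.1)/(healthy FPKM + 0.1)), which understates the ratio of low transcripts. Of the 2556 members, 2554 reached 0.5 FPKM in either library, and the other 2, MSTRG.18893.1 and MSTRG.23223.1, were listed at 0 in both (0.0001 stands for 0 in the deposited table). The median FPKM was 2.05 in CIA and 1.78 in healthy, and the median log2 ratio was 0.30, with quartiles of -0.53 and 0.98. At least 2-fold higher in CIA were 620 members (24.3%) and at least 2-fold lower 390 (15.3%), where all 16773 assembled transcripts past the same filter gave 17.2% and 11.1%. The members were thus 2-fold apart more often than assembled transcripts as a whole, in both directions. By a 4-fold rule the members gave 213 and 158, where assembled transcripts gave 5.21% and 4.44%. The median over 3068 annotated transcripts was also 0.30, with 15.7% of them 2-fold higher and 6.13% lower. Relative to it, the members' median was -0.00057, and 450 members (17.6%) were 2-fold higher and 547 (21.4%) 2-fold lower, beside 11.5% and 15.4% of all assembled transcripts. The order of higher and lower members therefore depended on this shift, and a change of depth or RNA content between the libraries cannot be told apart from a shared change of level.

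**Figure D1:**
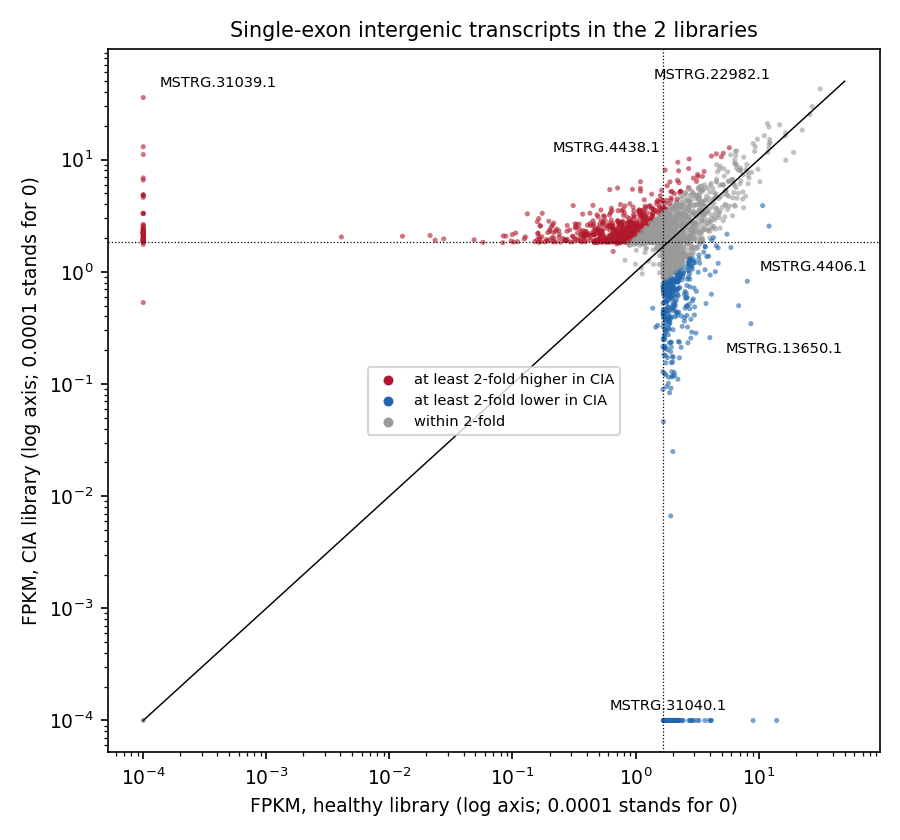
FPKM of each of the 2556 single-exon intergenic transcripts in the healthy library (horizontal log axis) and the CIA library (vertical log axis), with points coloured by the 2-fold rule, the solid line marking equal values and the dotted lines the lower edges of 1.84 FPKM in CIA and 1.68 FPKM in healthy. All but 103 points lie at or above at least 1 of the edges, and the 2-fold members form arms along them.

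The plot of the members in both libraries showed a sharp lower edge. Among the 523 members under 1 FPKM in the healthy library, 5% lay below 1.84 FPKM in CIA, and their median there was 2.14. Among the 401 members under 1 FPKM in CIA, 5% lay below 1.68 FPKM in healthy, and their median was 1.89. The same edges were seen for single-exon intronic transcripts of the table, at 1.82 and 1.67 FPKM, whereas the corresponding values for multi-exon intergenic transcripts were 0.898 and 0.0001 over 21 and 18 transcripts. A member low in either library was thus in the table almost only where the other library was above its edge. With the edge taken at these values, 802 members (31.4%) were at or above it in both libraries, 896 in CIA only, 755 in healthy only and 103 in neither. Of the 1010 members that were 2-fold apart, 939 were at or above the edge in 1 library only, 43 in both and 28 in neither. A member of the 939 was in the table through the library where it was high, so the counts over all members are given as a description of the table and support no direction.

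At or above the edge in both libraries, 38 of the 802 members (4.74%) were at least 2-fold higher in CIA and 5 (0.623%) at least 2-fold lower, beside 4.47% and 0.747% of the 8170 assembled transcripts that met the same condition. These shares were near those of the assembled transcripts as a whole. The median log2 ratio of the 802 members was 0.23, below the annotated median of 0.30, and 70.7% of them had a ratio above 0. The edge was higher in CIA (1.84 FPKM) than in healthy (1.68 FPKM). The condition itself thus favours ratios above 0, and that share supports no direction. The members named from these 43 were chosen after their values were seen. MSTRG.21528.1, 19.7 kb upstream of the splicing factor gene Hnrnpa3, had 8.07 FPKM in CIA and 1.74 in healthy, a log2 ratio of 2.15. MSTRG.4438.1, 2.34 kb downstream of Btg1, a gene that restrains lymphocyte proliferation, had 9.47 and 2.21 FPKM, a log2 ratio of 2.05. Within 5 kb downstream of a coding gene lay 11 of the 38 higher members. The share among the 802 was not computed, and the 19.2% of all members that lay so is an unlike base. The 11 of 38 are thus a count only and show no enrichment. The genes of the 11 were Btg1, B3gnt5, Csnk1g3, S1pr1, Olfr164, Rnf41, Rap1b, Ms4a4c, Stk17b, Fam169b and Arf6. MSTRG.24933.1, 4.57 kb downstream of S1pr1, the receptor that guides lymphocytes out of lymphoid organs, had 5.21 FPKM in CIA and 2.32 in healthy. MSTRG.4595.1, 3.56 kb downstream of Rap1b, a small GTPase of cell adhesion, had 5.62 and 2.69 FPKM. MSTRG.556.1, 4.27 kb downstream of Stk17b, a kinase of T cells, had 6.40 and 3.13 FPKM. MSTRG.19234.1, 3.75 kb downstream of Ms4a4c, had 3.61 and 1.71 FPKM, and MSTRG.24616.1, 21.1 kb upstream of the receptor gene Notch2, had 11.4 and 5.16 FPKM. MSTRG.30842.1, 4505 bases from the microRNA gene Mir29a, had 4.37 FPKM in CIA and 1.95 in healthy. The 5 lower members included MSTRG.5044.1 near Vstm2a, at 2.55 FPKM in CIA and 12.1 in healthy. MSTRG.18841.1 and MSTRG.18842.1, 67.2 and 68.4 kb upstream of Dok6, were at 3.89 against 10.8 and 2.16 against 5.52 FPKM. Both overlapped the RefSeq lncRNA Gm41800, so they may be pieces of the same RNA. The others were MSTRG.33060.1, 38.7 kb downstream of Zfp954, at 1.91 against 4.16, and MSTRG.33141.1, which overlaps the RefSeq gene Zc3h4, at 2.02 against 4.30. MSTRG.33061.1, 40.02 kb downstream of Zfp954 and among the 38 higher members, went the other way, at 6.84 FPKM in CIA and 2.95 in healthy.

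Abundance was narrow and low. The mean FPKM of the 2 libraries lay between 1 and 5 for 2363 members (92.4%), reached 5 for 106 and reached 10 for 22. The higher of the 2 values had a 5th percentile of 1.72 FPKM, a median of 2.23 and a 95th percentile of 5.57. Members with a mean of 1 to 2 FPKM had a median log2 ratio of 0.28, with 29.9% higher and 19.1% lower by 2-fold. From 2 to 5 FPKM the median was 0.35 with 13.97% and 4.29%, and from 5 to 20 FPKM it was 0.20 with 15.7% and 2.94%. The share of lower members was thus smaller in the more abundant classes. Of the 4 members over 20 FPKM none was 2-fold apart, and the 85 members under 1 FPKM past the filter all were. The last count was nearly fixed in advance. As the higher value was rarely under 1.72 FPKM, a mean under 1 FPKM requires a low value in the other library. The same edge shapes the shares of the other classes, which describe the table only.

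The most abundant member, MSTRG.22982.1, lay on chromosome 2 from 163621624 to 163623269 on the plus strand, 3 bases past the end of Serinc3 and on the opposite strand from it. It had 42.7 FPKM in CIA and 31.7 in healthy. Serinc3 encodes a membrane protein known for blocking retroviral particles. MSTRG.9522.1, which overlaps the RefSeq pseudogene Gm2423, followed with 29.7 and 27.2 FPKM, and MSTRG.26404.1, 792 bases from the pseudogene Gm12696, with 25.3 and 26.1 FPKM. MSTRG.25636.1 overlapped the pseudogene Gm11847 and had 17.3 and 16.6 FPKM. Pseudogenes can share reads with the genes they were copied from, so the levels of these 3 members are uncertain. MSTRG.3587.1, 294 kb from the nearest coding gene, had 18.3 and 22.6 FPKM, and MSTRG.39203.1, 498 kb from Zic1, had 16.2 and 16.5 FPKM. MSTRG.19735.1, 12.5 kb upstream of the corepressor gene Lcor, had 20.4 FPKM in CIA and 14.8 in healthy. MSTRG.26499.1 had 20.96 and 11.8 FPKM, and MSTRG.2956.1, 29.96 kb upstream of the sulfotransferase gene Ust, 19.5 and 12.1 FPKM. None of these 9 was 2-fold apart between the libraries.

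The remaining member among the 10 of highest mean lay in the T cell receptor beta locus, which encodes a chain of the antigen receptor of T cells. MSTRG.31039.1, on the minus strand, had 35.8 FPKM in CIA and was listed at 0 in healthy. MSTRG.31040.1 had the identical span on the plus strand, was listed at 0 in CIA and had 14.01 FPKM in healthy. Both covered chromosome 6 from 41196262 to 41202101 (5840 bases), 449 bases upstream of Trbv21, and they were the only pair of members with the same span. With both strands summed, the span had 35.8 FPKM in CIA and 14.01 in healthy, a log2 ratio of 1.35. The span was thus higher in CIA once both strands were summed, whereas the 2 entries pointed in opposite directions. In the immunoglobulin lambda locus, which encodes an antibody light chain, 3 members pointed in different directions. The longest, MSTRG.14636.1 (5602 bases), had 2.40 FPKM in CIA and 3.94 in healthy. MSTRG.14641.1 (4453 bases) had 3.05 and 1.60 FPKM, and MSTRG.14640.1 (1216 bases) 2.27 and 1.14. Their plain sums, 7.72 FPKM in CIA and 6.68 in healthy, are not weighted by length and give no direction for the locus.

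At 0 in 1 library only were 118 members, 57 in CIA and 61 in healthy. Their median length was 275 bases and their median in the other library 2.13 FPKM, close to the edge. Apart from the pair in the T cell receptor beta locus, the most abundant listed at 0 in CIA were MSTRG.14427.1, 8.96 kb upstream of the DNA repair gene Ercc4, at 9.01 FPKM in healthy, and MSTRG.40497.1, 38.9 kb from Mageb5, at 4.12. MSTRG.33071.1 near Vmn1r84 had 4.11 FPKM and MSTRG.20630.1, 0.439 kb downstream of Ubac1, 3.98. Those listed at 0 in healthy were led by MSTRG.14283.1, 53.6 kb upstream of Glycam1, at 13.0 FPKM in CIA, and MSTRG.7624.1, 5.11 kb upstream of Itsn2, at 11.1. MSTRG.36540.1 near Fam32a had 6.87 FPKM and MSTRG.12368.1 near Msra 6.57. No ratio is given against a value of 0, since the depth behind it is unknown.

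The ratios differed with length. The members had a median length of 423 bases, with 1478 (57.8%) under 500 bases, and 277 members of 2000 bases and over held 48.8% of the summed length of 2381 kb. Under 300 bases, 809 members had a median log2 ratio of 0.05, and 27.6% of them were 2-fold higher and 23.6% lower. From 300 to under 500 bases the shares were 24.1% and 17.6% (median 0.21), and from 500 to under 1000 bases 26.2% and 10.9% (median 0.29). From 1000 to under 2000 bases they were 17.3% and 6.34% (median 0.39), and at 2000 bases and over 18.8% and 2.54% (median 0.54). Over all members in the table, the share of lower members was smaller in each longer class, and the median was higher. Relative to the annotated median, the class medians were -0.25, -0.09, -0.01, 0.10 and 0.24 in the same order, so the first 3 turned negative while the order by length stayed. The share of members at or above the edge in both libraries was 24.6% in the shortest class and 46.9% in the longest. Among those members the class medians were 0.15, 0.25, 0.20, 0.19 and 0.45, with 3, 0, 1, 1 and 0 lower by 2-fold, so the stepwise order was not seen there.

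**Figure D2:**
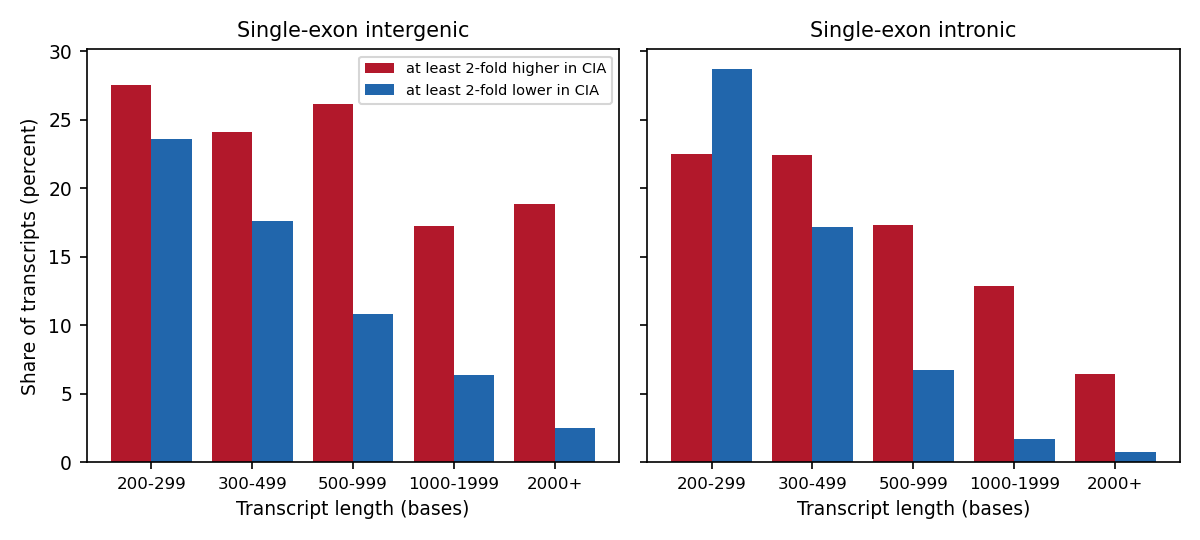
Share of transcripts at least 2-fold higher (red bars) and lower (blue bars) in CIA, in percent, by transcript length in bases, for single-exon intergenic transcripts on the left and single-exon intronic transcripts on the right. The lower share runs from 23.6% to 2.54% on the left and from 28.7% to 0.725% on the right.

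The same order by length was found for 11665 single-exon intronic transcripts, whose class medians ran from -0.16 to 0.34. Their shares of lower transcripts were 28.7% in the shortest class and 0.725% in the longest. In the class of 2000 bases and over, 18.8% of the intergenic members but 6.46% of the intronic transcripts were 2-fold higher. Over all lengths, the intronic transcripts were longer (median 722 bases) and 16.0% of them were higher and 10.6% lower. The 146 multi-exon intergenic transcripts had a median length of 656.5 bases and a median log2 ratio of 0.52, with 25.3% higher and 11% lower. With 1 library per group, none of these differences between sets could be tested.

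The longest member, MSTRG.14687.1, spanned 42111 bases on the plus strand of chromosome 16 and had 5.21 FPKM in CIA and 3.49 in healthy. MSTRG.23196.1 (13720 bases, overlapping the RefSeq models Gm46781 and Zfp831) had 4.13 and 2.16 FPKM. MSTRG.33623.1 (12928 bases), 5.41 kb downstream of Uri1, had 2.39 and 1.83 FPKM, and MSTRG.23284.1 (12484 bases) had 2.49 and 2.98 FPKM. All 4 were within 2-fold, unlike the 17164-base MSTRG.4438.1 beyond Btg1. Among members of 2000 bases and over, the largest ratios, listed after their values were seen, also included MSTRG.29398.1, 2.499 kb downstream of the kinase gene Gak, at 2.47 FPKM in CIA and 0.324 in healthy. MSTRG.7283.1, which overlaps the lncRNA Gm11690, had 3.08 and 0.853 FPKM, and MSTRG.14686.1, directly beside the longest member, 3.45 and 1.06 FPKM. MSTRG.17966.1, 2.17 kb downstream of the membrane-bending protein gene Bin1, had 2.11 and 0.637 FPKM. The lowest was MSTRG.17487.1, 32.7 kb upstream of the developmental transcription factor gene Six2, at 0.363 FPKM in CIA and 2.49 in healthy. MSTRG.10375.1 and MSTRG.18042.1, both described with their neighbours, came next, and then MSTRG.33371.1 beside Zfp607a, at 0.739 and 2.01.

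Of the members above 0 in both libraries with at least 1 FPKM in either, those with the extreme ratios were mostly short and close to the edge. On the higher side stood MSTRG.13942.1 (242 bases, 4.50 kb downstream of the chromatin reader gene Brd1), at 2.04 FPKM in CIA and 0.00407 in healthy, MSTRG.40197.1 near Zfp280c at 2.07 and 0.0128, and MSTRG.39939.1 near Glod5 at 2.11 and 0.0214. MSTRG.2596.1, upstream of the histone variant gene H3f3a, had 1.92 and 0.0235 FPKM, and MSTRG.3555.1 near Ascc3 had 1.96 and 0.0276. MSTRG.17860.1 near Mapre2 had 1.83 and 0.0576 FPKM, and MSTRG.40922.1 near Phf8 had 2.09 and 0.0842. Apart from MSTRG.33627.1 near Ccne1 and MSTRG.4439.1 near Btg1, at 3.28 and 3.32 FPKM, the 10 highest ratios had a CIA value between 1.83 and 2.11 FPKM. On the lower side MSTRG.13650.1 (1363 bases, 2.45 kb downstream of the apolipoprotein L gene Apol11a) had 0.344 FPKM in CIA and 8.65 in healthy, a log2 ratio of -4.30. MSTRG.7775.1, overlapping the RefSeq lncRNA Gm40843, had 0.499 and 6.88 FPKM, and MSTRG.23246.1, near the zinc finger gene Gm14409, had 0.259 and 4.01 FPKM. Both stood well above the edge in healthy. The other 7 of the 10 lowest, namely MSTRG.30989.1, MSTRG.4777.1, MSTRG.39057.1, MSTRG.3541.1, MSTRG.38682.1, MSTRG.33462.1 and MSTRG.33100.1, were 208 to 291 bases long and had 1.68 to 2.21 FPKM in healthy and 0.00668 to 0.119 in CIA.

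The authors' deposited table gave its own p-value for each transcript, and names no test. That p was 1 for 1615 members, including 881 of the 1010 that were 2-fold apart. It was below 0.05 for 43 members, 34 higher and 9 lower in CIA, and the deposited q was below 0.05 for 5. The column marking significance in the authors' deposited table named 151 members, 129 higher and 22 lower, with p up to 0.209. The lowest q in the authors' deposited table was that of MSTRG.4406.1 (q = 0.000345), which had 0.823 FPKM in CIA and 8.08 in healthy. MSTRG.17487.1 near Six2 (q = 0.00283), MSTRG.10375.1 near Hsd17b3 (q = 0.0141) and MSTRG.18042.1 near Mzb1 (q = 0.0359) followed in the authors' deposited table, also lower in CIA. MSTRG.15747.1, between Mpc1 and Ccr6, was the member higher in CIA with a deposited q below 0.05 (q = 0.0423 in the authors' deposited table), at 2.13 FPKM and 0.412 FPKM. These values rest on 1 library per group and give no error across mice.

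Members lay near genes. The median distance to the nearest coding gene was 10.9 kb, and 1459 members were over 5 kb from any GENCODE gene. Within 5 kb downstream of a coding gene lay 491 members (19.2%), with a median length of 636 bases and a median log2 ratio of 0.38, and within 5 kb upstream 335 (13.1%), with medians of 495 bases and 0.11. The downstream members were 2-fold higher in 24.3% and lower in 12.2%, the upstream ones in 17.7% and 16.5%. Members over 50 kb from any coding gene numbered 675, had a median length of 328 bases and a median log2 ratio of 0.26. From 5 to 50 kb, the upstream members had a median of 0.32 and the downstream ones 0.33. The order moved with length: among members of 500 bases and over, the medians were 0.51 within 5 kb downstream, 0.34 within 5 kb upstream and 0.32 over 50 kb away, all above the annotated median of 0.30. Among the 191 members with a strand, 37 of 50 within 5 kb upstream ran on the strand of the gene, and 23 of 52 within 5 kb downstream did. The stranded members were longer than the others, with medians of 1352 and 399 bases. The 44 members over upstream windows had a median log2 ratio of 0.11. Of them, 10 were 2-fold higher and 2 lower, beside 24.3% and 15.3% of all members.

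All 21 chromosomes held members. Chromosome 4 had the most, with 208, or 1.33 per Mb, followed by chromosomes 2 with 187 and 1 with 181. Per Mb, chromosome 4 was followed by chromosomes 11 (1.28) and 19 (1.26), and the Y chromosome had the fewest, with 23 members (0.253 per Mb). The median log2 ratio was above 0 on 18 chromosomes, and after subtracting the annotated median it was above 0 on 12 and below 0 on 9. The highest was on chromosome 14, at 0.76 over 78 members. There 32 (41.0%) were 2-fold higher and 7 (8.97%) lower, beside 24.3% and 15.3% of all members. Relative to the annotated median, 21 (26.9%) were higher and 8 (10.3%) lower, beside 17.6% and 21.4%. Of the 78, 34 were at or above the edge in CIA only, 14 in healthy only and 26 in both, so the counts support no direction. The lowest medians were those of chromosome Y at -0.50, chromosome 6 at -0.04 over 136 members and chromosome 3 at -0.01 over 107. On chromosome Y 4 members (17.4%) were higher and 7 (30.4%) lower.

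Chaining members no more than 10 kb apart gave 137 clusters of 3 or more, which held 540 members (21.1%). A further 272 pairs and 1472 members alone made up the rest. All members had a ratio above 0 in 43 clusters and below 0 in 17, and 77 held both signs. Relative to the annotated median, these were 25 and 29. By the length-weighted mean of its members, 17 clusters were 2-fold higher and 12 lower, or 8 and 17 relative to that median. Members of a cluster share their neighbourhood and may be pieces of 1 RNA, so they are not independent of each other. Neighbours up to 1 kb apart differed by a median of 0.52 in log2 ratio over 245 pairs, with the same sign in 75.5% (Spearman's rho 0.49). At 1 to 10 kb the median difference was 0.70 over 430 pairs, with 65.3% of the same sign (rho 0.38). At 10 to 100 kb it was 1.04 over 250 pairs with 52.4%, and beyond 100 kb 1.21 over 1606 pairs with 53.4%. Members up to 10 kb apart were thus closer in ratio than members farther apart, and also share depth and library.

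**Figure D3:**
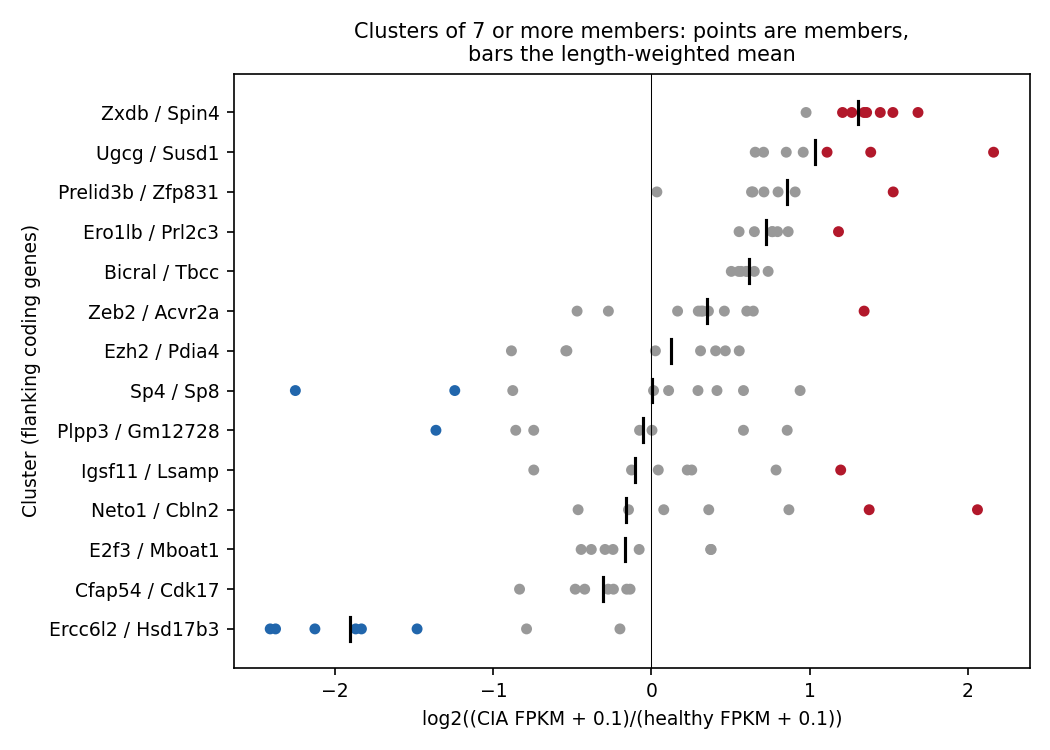
Ratios of the members of each cluster of 7 or more members, as log2((CIA FPKM + 0.1)/(healthy FPKM + 0.1)), with points for members and bars for the length-weighted mean, and clusters named by the coding genes on either side. All 8 members lie below 0 between Ercc6l2 and Hsd17b3, and all 8 lie above 0 between Zxdb and Spin4.

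The 14 clusters of 7 or more members held 107 of them. Between Ercc6l2, a DNA repair helicase gene, and Hsd17b3, which encodes an enzyme of testosterone synthesis, 8 members spanned 30.04 kb of chromosome 13 from 63974937 to 64004976. All 8 were lower in CIA, 6 of them by 2-fold, with a length-weighted mean of 0.495 FPKM in CIA and 2.13 in healthy. The longest, MSTRG.10375.1 (7525 bases), had 0.435 and 2.24 FPKM, and MSTRG.10372.1 (1594 bases) had 0.461 and 1.90. MSTRG.10368.1 had 0.389 and 1.69 FPKM, MSTRG.10370.1 had 0.390 and 2.504, MSTRG.10371.1 had 0.275 and 1.85, and MSTRG.10367.1 had 0.607 and 1.88. The remaining 2, MSTRG.10366.1 at 1.20 and 2.16 FPKM and MSTRG.10369.1 at 2.49 and 2.87, were within 2-fold. Of the 8, 7 were at or above the edge in healthy only.

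The opposite was measured on chromosome X between Zxdb and Spin4, genes of a zinc finger protein and a histone-binding spindlin, 111 kb and 144 kb away. There 8 members spanned 37.5 kb, with a length-weighted mean of 2.33 FPKM in CIA and 0.884 in healthy. Every member had 2.16 to 3.69 FPKM in CIA and 0.718 to 1.38 in healthy, so the values of the 2 libraries did not overlap, and 7 were 2-fold higher. All 8 were at or above the edge in CIA only. Between Ugcg, which encodes the enzyme that starts glycosphingolipid synthesis, and Susd1, 7 members had a mean of 2.33 FPKM in CIA and 1.09 in healthy, also with no overlap. Of these, 6 were at or above the edge in CIA only and 1 in neither library. A cluster whose members are in the table through 1 library must tend to be high there, so the lack of overlap supports no direction. Relative to the annotated median, the Zxdb cluster stayed 2-fold higher (log2 ratio 1.01) and the Ugcg cluster did not (0.74). In 32 of the 137 clusters the values of the libraries did not overlap, and 16 of the 32 had no member at or above the edge in both.

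Other large clusters were within 2-fold. Upstream of the GENCODE model of Zfp831, a zinc finger gene, 7 members covered 33.7 kb of a 41.6 kb span and had a length-weighted mean of 4.14 FPKM in CIA and 2.24 in healthy, and 6 of them were at or above the edge in both libraries. All 7 overlapped the RefSeq gene Zfp831, so by RefSeq they lay in that gene rather than upstream of it. Between Bicral and Tbcc, which encodes a tubulin folding cofactor, 7 members covered 27.4 kb of 30.8 kb, with 2.97 and 1.91 FPKM and a narrow range of log2 ratios from 0.50 to 0.74, and all 7 overlapped the RefSeq gene Bicral. By GENCODE both clusters ended close to a coding gene, 1.67 kb from Zfp831 and 0.893 kb from Tbcc. Between Ero1lb and Prl2c3, 7 members had 2.43 and 1.43 FPKM. The cluster between Cfap54 and Cdk17 had 3.16 FPKM in CIA and 3.92 in healthy, with all 7 members below 0. The largest cluster, of 11 members between Zeb2 and Acvr2a, had 2.12 and 1.64 FPKM, and 9 of the 11 overlapped the RefSeq gene Vis1. Next to Sp4, 9 members had 1.92 and 1.91 FPKM, with ratios from -2.25 to 0.94, and next to Ezh2, the methyltransferase of Polycomb complexes, 8 members had 1.84 and 1.68 FPKM. Between E2f3 and Mboat1 the 7 members had 1.69 and 1.91 FPKM, between Igsf11 and Lsamp 1.65 and 1.78, between Neto1 and Cbln2 1.72 and 1.94, and between Plpp3 and Gm12728 1.60 and 1.67.

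**Figure D4:**
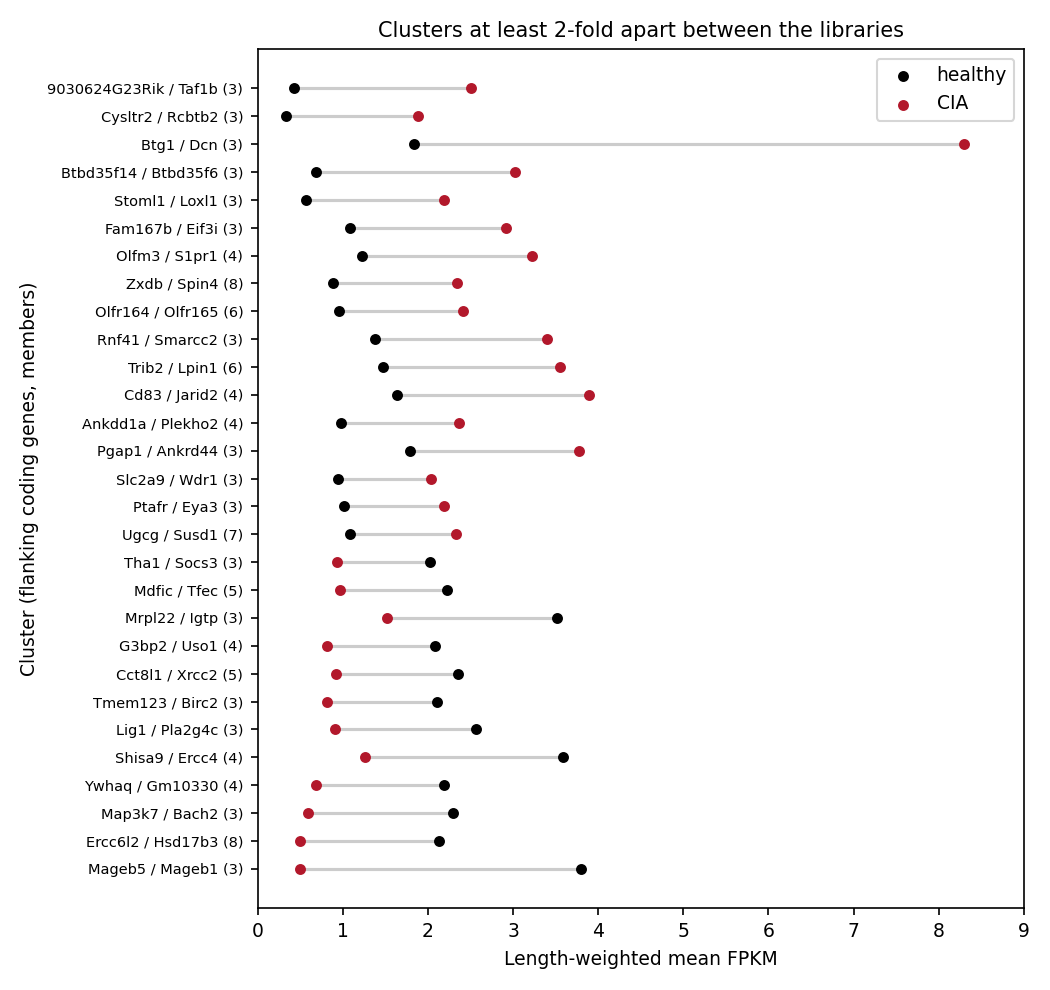
Length-weighted mean FPKM in the CIA and healthy libraries of the 29 clusters of 3 or more members that were at least 2-fold apart, named by the coding genes on either side with the number of members in brackets. The cluster beyond Btg1 has the highest value, 8.30 FPKM in CIA against 1.83 in healthy.

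Of the smaller clusters that were 2-fold apart, 5 higher and 5 lower ones are described, picked after their values were seen. The 3 members downstream of Btg1 had a length-weighted mean of 8.30 FPKM in CIA and 1.83 in healthy, led by MSTRG.4438.1, with MSTRG.4439.1 at 3.32 and 0.175 FPKM and MSTRG.4440.1 at 2.51 and 0.207. Downstream of S1pr1, 4 members had 3.22 and 1.22 FPKM, with MSTRG.24929.1 at 4.75 and 2.34, MSTRG.24930.1 at 2.44 and 0.586, MSTRG.24928.1 at 2.39 and 0.541 and MSTRG.24931.1 at 1.84 and 0.660. Between Cd83, which encodes a surface protein of activated B cells and dendritic cells, and Jarid2, 4 members of 8981 to 12435 bases had 3.90 and 1.63 FPKM. MSTRG.10015.1 had 5.43 and 2.72 FPKM, MSTRG.10016.1 3.67 and 1.71, MSTRG.10021.1 3.51 and 1.11, and MSTRG.10022.1 2.63 and 0.769. They lay 159 kb or more from Cd83, and MSTRG.10022.1 lay 4494 bases from the lincRNA Gm33489. Between Trib2 and Lpin1, 541 kb and 151 kb away, 6 members had 3.55 and 1.47 FPKM, and 4.51 kb from Ankrd44 3 members had 3.77 and 1.78. Relative to the annotated median, the Btg1 and S1pr1 clusters stayed 2-fold higher, with log2 ratios of 1.82 and 1.03. The Cd83, Trib2 and Ankrd44 clusters did not, at 0.91, 0.92 and 0.74. At or above the edge in CIA only were 2 of 3 members of the Btg1 cluster and 3 of 4 of the S1pr1 cluster. For the Cd83, Trib2 and Ankrd44 clusters these were 2 of 4, 5 of 6 and 1 of 3. Such members are in the table through the CIA library, so the cluster ratios support no direction.

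Lower in CIA were the 3 members near Socs3, the feedback inhibitor of cytokine signalling, with a length-weighted mean of 0.928 FPKM in CIA and 2.02 in healthy. MSTRG.7419.1 (2733 bases) had 0.855 and 1.87 FPKM, MSTRG.7420.1 had 1.11 and 2.60, and MSTRG.7423.1 had 1.13 and 2.37. The libraries did not overlap, and all 3 members were at or above the edge in healthy only, so that supports no direction. Between Mrpl22 and Igtp, an interferon-inducible GTPase gene, 4.15 kb and 7.18 kb away, 3 members had 1.51 and 3.51 FPKM. This cluster overlapped the RefSeq gene Gm12250, and 2 of its 3 members were at or above the edge in healthy only. The 5 members between Mdfic and Tfec, 27.2 kb and 987 kb away, had 0.968 and 2.22 FPKM. The 3 between Map3k7 and Bach2, 5.81 kb and 205 kb away, had 0.593 and 2.29 FPKM. Bach2, a repressor that controls B cell differentiation, was thus not a close neighbour. Between Mageb5 and Mageb1 3 members had 0.490 and 3.80 FPKM, of which MSTRG.40497.1 was listed at 0 in CIA. Subtracting the annotated median, which is above 0, can only lower these ratios further. No member of the clusters near Socs3, Mdfic and Map3k7 was at or above the edge in both libraries.

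To place members beside known functions, coding genes of 15 lists were used, and members within 50 kb of a listed gene were counted. The mRNA of those genes was not analysed here, and in RNA of whole spleen fewer cells of a type and less RNA per cell cannot be told apart. Over all members, 60.4% had a ratio above 0, and 24.3% were 2-fold higher and 15.3% lower, or 17.6% and 21.4% relative to the annotated median. The lists are to be read against these shares. Of 15 members beside B cell genes all had a ratio above 0, with a median of 0.80, and 6 (40%, beside 24.3% of all members) were 2-fold higher. Relative to the annotated median, the median was 0.51, 13 were above 0 and 3 (20%, beside 17.6%) were 2-fold higher. Beside Pax5, MSTRG.25948.1 had 2.43 FPKM in CIA and 0.347 in healthy. Among the members beside Ebf1, which with Pax5 sets the B cell programme, MSTRG.5408.1 had 3.35 and 1.24 FPKM, MSTRG.5407.1 4.01 and 2.23 and MSTRG.5410.1 2.02 and 0.817. The first 2 overlapped transcripts of other classes, MSTRG.5406.2 at 3.19 and 1.17 FPKM and MSTRG.5406.1 at 0.126 and 4.18, which pointed in opposite directions. MSTRG.19722.1 beside Blnk, an adaptor of the B cell receptor, had 2.502 and 0.922 FPKM, and MSTRG.5185.1 beside Bcl11a had 1.86 and 0.707. The most abundant of the 15, MSTRG.2834.1 beside the complement receptor gene Cr2, had 10.9 and 6.51 FPKM. Only 4 of the 15 were at or above the edge in both libraries.

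**Figure D5:**
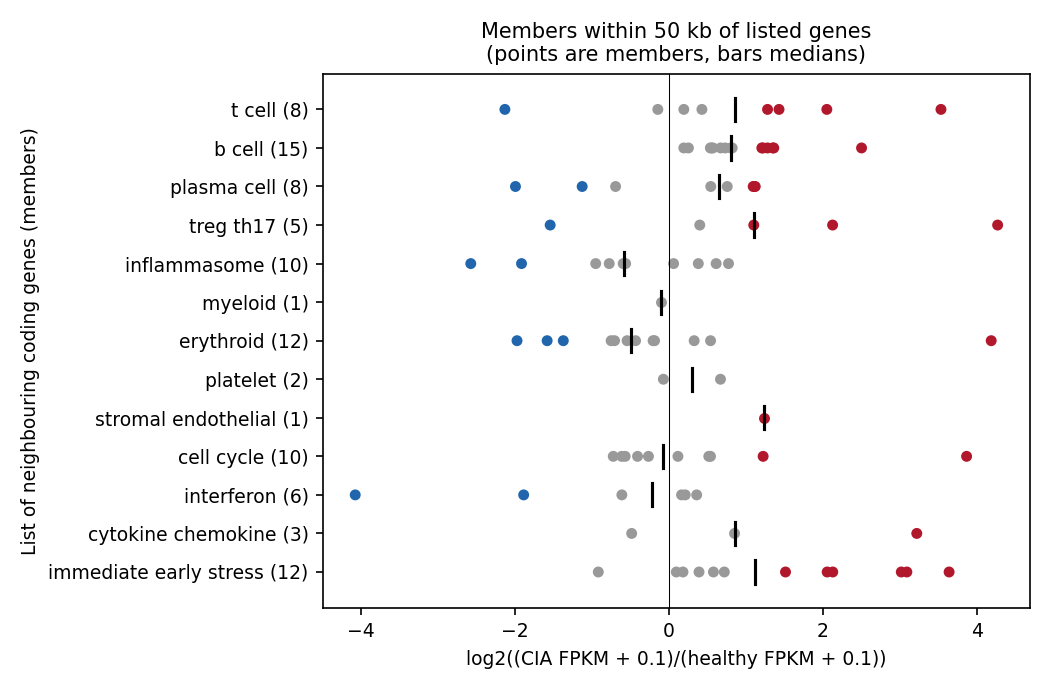
Ratios of members within 50 kb of the coding genes of each list, as log2((CIA FPKM + 0.1)/(healthy FPKM + 0.1)), with the number of members in brackets, points coloured red or blue where at least 2-fold higher or lower and bars at the medians. The 15 members beside B cell genes all lie above 0, and those beside erythroid and inflammasome genes have medians of -0.49 and -0.58.

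Of 8 members beside T cell genes, there were 4 above 2-fold and 1 lower by as much, beside 24.3% and 15.3% of all members, and the median was 0.85. With the annotated median subtracted, 3 were higher and 1 lower, with a median of 0.56. Of the 8, 3 were at or above the edge in both libraries, 4 in CIA only and 1 in healthy only. MSTRG.6906.1, 23.4 kb from Ccr7, the receptor that brings lymphocytes into lymphoid tissue, had 2.08 FPKM in CIA and 0.0884 in healthy. MSTRG.27040.1, 13.9 kb upstream of the kinase gene Lck, had 3.598 and 0.793 FPKM, and MSTRG.31563.1 near Cd8a 1.85 and 0.624. The 3 members counted for Lck formed 1 cluster between Fam167b and Eif3i, 2.18 and 3.27 kb away, so Lck was not their nearest coding gene. Of the others there, MSTRG.27039.1 had 2.08 and 0.799 FPKM. MSTRG.27038.1, the closest to Lck at 7.08 kb, had 3.78 FPKM in CIA and 4.19 in healthy. The member 2-fold lower was MSTRG.12996.1, 3.22 kb from the interleukin receptor gene Il7r, at 0.396 FPKM in CIA and 2.08 in healthy. Among 5 members beside genes of regulatory and Th17 cells, 3 lay near Ccr6, the receptor for Ccl20. Of these, MSTRG.15747.1 had 2.13 and 0.412 FPKM, MSTRG.15746.1 had 2.56 and 1.14, and MSTRG.15743.1 had 1.83 and was listed at 0 in healthy. MSTRG.27817.1, near Tnfrsf18, was the other way round, at 0.548 and 1.79 FPKM. MSTRG.15747.1 lay closer to Mpc1 than to Ccr6 and overlapped the RefSeq lncRNA Gm33799. None of the 5 was at or above the edge in both libraries. The edge was reached in CIA only by 2, in healthy only by 1 and in neither by 2.

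The 8 members beside plasma cell genes lay near Mzb1 and Xbp1, which support antibody folding, with 3 higher and 2 lower by 2-fold, beside 24.3% and 15.3% of all members. After subtracting the annotated median none was higher and 2 were lower, and 1 of the 8 was at or above the edge in both libraries. MSTRG.18042.1 (5470 bases, 3.04 kb downstream of Mzb1 on its strand) had 0.936 FPKM in CIA and 4.03 in healthy. It overlapped MSTRG.18043.1, a 2-exon transcript on the opposite strand, which had 5.46 and 1.30 FPKM, so the strands pointed in opposite directions there. MSTRG.18064.1, 12.8 kb from the same gene, had 3.07 and 1.36. Near Xbp1, MSTRG.4923.1 had 1.21 and 2.76 FPKM, and MSTRG.4918.1 had 2.19 and 0.963. The 12 members beside immediate early and stress genes had the highest median of the lists with more than 5 members, 1.12, or 0.82 relative to the annotated median. Of the 12, 6 were 2-fold higher (50%, beside 24.3% of all members) and none lower, or 6 and 1 relative to that median, and 4 were at or above the edge in both libraries. Beside the Btg1 members already given, MSTRG.17463.1 near Zfp36l2, an RNA-decay factor gene, had 2.04 FPKM in CIA and 0.164 in healthy. MSTRG.26037.1 near Nr4a3, a nuclear receptor gene switched on in stimulated lymphocytes, had 2.71 and 0.544 FPKM, and MSTRG.36491.1 near Jund 2.04 and 0.649. MSTRG.18014.1 near Egr1 had 4.44 and 2.66 FPKM, and MSTRG.1679.1 near Btg2 had 0.991 and 1.96.

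Members beside erythroid genes, which serve red cell formation in the mouse spleen, had a median of -0.49 over 12, with 1 higher and 3 lower (25%, beside 15.3% of all members), and -0.79 with 1 and 5 relative to the annotated median (41.7%, beside 21.4%). MSTRG.23452.1 near the carbonic anhydrase gene Car2 had 0.594 FPKM in CIA and 2.63 in healthy. Near Gata1, the master regulator of red cell genes, MSTRG.39937.1 had 0.613 and 2.04 FPKM and MSTRG.39938.1 0.692 and 1.95, whereas MSTRG.39939.1 had 2.11 and 0.0214. Of the 12, 8 were at or above the edge in healthy only. Beside inflammasome genes, which drive release of interleukin 1, the median over 10 was -0.58, with none higher and 2 lower (20%, beside 15.3% of all members), or -0.88 with none and 4 relative to the annotated median. Of the 10, 5 were at or above the edge in healthy only. MSTRG.2414.1, 36.5 kb from the DNA sensor gene Aim2, had 0.232 and 1.88 FPKM. MSTRG.13569.1, 17.9 kb from the pore protein gene Gsdmd, had 0.717 and 2.99. Other members beside both genes went the other way, and 4 of the 10 had a ratio above 0. MSTRG.13572.1, 2.90 kb from Gsdmd, had 2.02 FPKM in CIA and 1.53 in healthy. Near Aim2, MSTRG.2419.1 had 1.91 and 1.08 FPKM, and MSTRG.2448.1 had 4.83 and 3.13. All 4 members counted for Txnip were lower in CIA, but they lay 42.6 to 49.3 kb upstream of it. They formed 1 cluster between BC107364 and Hfe2. Of these, MSTRG.24548.1 (2197 bases), 13.8 kb from Hfe2, its nearest coding gene, had 1.95 and 3.41 FPKM. MSTRG.24550.1 had 0.970 and 1.97.

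Beside interferon-response genes, 2 of 6 members (33.3%) were 2-fold lower and none higher, beside 15.3% and 24.3% of all members, at a median of -0.23. Relative to the annotated median, the counts were the same, beside 21.4% lower and 17.6% higher of all members, and the median was -0.52. Of the 6, 2 were at or above the edge in both libraries, 2 in healthy only and 2 in neither. MSTRG.32404.1, 0.315 kb from Usp18, which removes the modifier Isg15, had 0.321 FPKM in CIA and 1.46 in healthy, and MSTRG.4777.1, 43.5 kb from Stat2 and 1.14 kb from Cs, had 0.0250 and 2.01. The 3 members near Oas2 and the 1 near Oasl2, genes of antiviral enzymes, were within 2-fold. Beside cell cycle genes, 2 of 10 were higher (20%, beside 24.3% of all members) and none lower, or 1 and 1 with a median of -0.37 relative to the annotated median. Both higher ones lay near the cyclin gene Ccne1, with MSTRG.33627.1 at 3.28 and 0.132 FPKM and MSTRG.33629.1 at 2.74 and 1.12. Another member there, MSTRG.33628.1, had 2.84 FPKM in CIA and 3.44 in healthy. Of 3 members beside cytokine genes, MSTRG.6448.1, 16.5 kb from the chemokine gene Ccl5, had 1.86 and 0.110 FPKM, close to the CIA edge. MSTRG.33318.1 near Tgfb1 was within 2-fold, at 2.58 and 1.39 FPKM. MSTRG.5394.1, 36.2 kb from Il12b, went the other way, at 1.95 FPKM in CIA and 2.77 in healthy. At or above the edge in CIA only were 2 of the 3. Platelet genes had 2 members, MSTRG.7012.1 near Itga2b at 1.91 and 1.17 FPKM and MSTRG.31837.1 near Gp9 at 2.66 and 2.81. The myeloid list had 1 member, MSTRG.23324.1 near Zbtb46, at 1.66 and 1.80 FPKM, and the stromal list 1, MSTRG.19812.1 near Tlx1, at 2.36 and 0.949. No member lay within 50 kb of a gene of the natural killer list or of the snoRNA host list, of whose 16 genes 8 were found as coding genes. Each list held few members, and several rest on 1 locus, so the counts describe those loci rather than the cell type.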

How the data were processed

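RNA of spleen from 1 CIA and 1 healthy library was analysed. The authors deposited FPKM values per transcript, per the file headers, with 0.0001 in place of 0. The submitters' processing notes name StringTie. Neither aligner, build, strand setting nor test is given in the sources used here. The ratio (fold) column deposited by the authors equalled CIA over healthy FPKM for all 2556 members (relative tolerance 0.0001), and the deposited log2 column is its logarithm. Any p-value or q-value quoted was deposited by the authors. In 2 damaged cells of the annotated table the CIA value was restored from the deposited ratio. All 15172 annotated transcripts had GENCODE M21 coordinates, so GRCm38 is given as the build. The depth is unknown, as FPKM keeps no counts, so no interval is given.

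The log2((CIA FPKM + 0.1)/(healthy FPKM + 0.1)) was taken for transcripts reaching 0.5 FPKM in CIA or healthy. A size rule of 2-fold stood in for a test. Members were chained over gaps of up to 10 kb and placed against GENCODE M21 genes. The members, gene lists, rules and alternatives were chosen with earlier results of these data known. Named were the 10 members of highest mean FPKM, the 10 of highest and 10 of lowest ratio, the 5 most abundant at 0 in either library, the 5 longest, the clusters with most members (14, because of ties) and up to 4 members per list. The edge, the members of 2000 bases and over by ratio, the clusters 2-fold apart and all further names were added after seeing the data. No genome sequence was used, so RefSeq windows replaced the planned stretches from the members' centres. Alternatives were other pseudocounts, filters, centrings, gaps, windows, a 4-fold rule and subsets of members. Python 3.11.15, numpy 2.4.6, pandas 2.3.3 and matplotlib 3.10.9 were used.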

Additional observations from a re-analysis of the deposited data

How the results depend on the processing

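No paired analysis was possible because there was 1 library a group, and for the same reason no replicate could be left out. The median log2 ratio of the members (0.30) was -0.00057 after centring on the annotated median and 0.039 after centring on the median of all assembled transcripts. The 620 members 2-fold higher and 390 lower became 305 and 191 with a pseudocount of 1 FPKM, 375 and 240 among members over 5 kb from any gene, and 213 and 158 under the 4-fold rule, where all assembled transcripts gave 5.21% and 4.44%. Alternatives chosen after seeing the data gave 236 and 81 among members of 500 bases and over, and 38 and 5 among those at or above the edge in both libraries. The subsets hold fewer members by construction. No result changed sign where it had been 2-fold apart. The number of clusters stayed within 1.5 times of 137 at gaps of 5 kb (121) and 50 kb (174). With a pseudocount of 1 FPKM, 2 of the 14 large clusters, 3 of 13 lists and 3 of 53 named members were no longer 2-fold apart. Those lists (regulatory and Th17 cells, stromal cells, immediate early genes) also lost it after centring on the annotated median (0.80, 0.93 and 0.82) and with a window of 200 kb (0.99, 0.90 and 0.53), and the last with one of 10 kb (0.72). With 10 kb the B cell median was 1.01, and the plasma cell median, 0.65 at 50 kb, was -1.996 and rested on MSTRG.18042.1 alone. A subset outside repeats or multi-copy sequence was not run, as the annotation used marks none. FPKM without counts and 1 library per group limit all values, and low transcripts most.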
